A study of Mus musculus with 19 samples.

Results

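The genes described are 10 of the 55487 in the files, matched by symbol: 6 ligands of the EGF family (Egf, Tgfa, Areg, Ereg, Btc and Hbegf), 3 ErbB receptors (Egfr, Erbb2 and Erbb3) and Errfi1, the feedback inhibitor of these receptors. They were measured by RNA sequencing of crypts, the epithelial pits that hold the intestinal stem cells, from the proximal part of the mouse small intestine. The 19 C57BL/6 mice, of both sexes and 1 library each, comprised 5 of genotype Nt+/+ and 4 of genotype Nt-/- with chow ad libitum, and 5 of each genotype after 48 hours on water without food. Nt-/- mice lack neurotensin, a gut peptide hormone encoded by the gene listed as Nts, and the labels name no other treatment or allele. The methods call the fed controls littermates matched for sex and age, but the labels tie no mouse to a litter. The labels give no age, and the methods describe young adult mice. The study describes its fasted and fed mice as carrying an Lgr5-EGFP reporter allele, which the labels of these libraries do not name.

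EGF family ligands are made as membrane proteins, and metalloproteases such as ADAM17 and ADAM10 cut them free. They bind EGFR, which then pairs with itself or with another ErbB receptor. ERBB2 binds no ligand of its own, ERBB3 has little kinase activity and is known for passing the signal to PI3-kinase, and ERRFI1 (also called MIG6) binds active EGFR and ERBB2 and blocks the kinase. In the crypt, EGF receptor signaling is known for sustaining the division of stem and progenitor cells.

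Total counts ranged from 9059418 to 35068669 per mouse, with a median of 18541770, and the 2 shallowest libraries were fasted Nt-/- replicates 2 and 4. Nts lay between 4.98 and 8.59 CPM (a count scaled to the library's size by the TMM method) in the 10 mice grouped as Nt+/+ and between 0.145 and 0.793 CPM in the 9 Nt-/- mice. That includes fasted Nt+/+ replicate 5, which had 5.43 CPM although a second label calls it Nt-/-. The summed level of 8 crypt epithelial genes was 3018 to 4382 TPM (a level per transcript length), against at most 3.13 TPM for 7 fibroblast genes, 2.00 for 5 smooth muscle genes, 2.25 for 4 endothelial genes and 0.40 for 5 pancreatic acinar genes. Leukocyte markers (9 genes) summed to 26.4 to 83.2 TPM, and 4 genes of Brunner glands and stomach-type mucous cells to at most 3.59 TPM. The library is thus led by epithelial genes, and 7 Paneth cell genes alone summed to 44670 to 87300 TPM. With fasting, 1 of the 8 crypt genes fell in each genotype (edgeR, adjusted p under 0.05). This was the stem cell marker Olfm4, at a log2 fold change of -0.63 in Nt+/+ and -0.92 in Nt-/- mice (edgeR adjusted p = 0.0322 and 0.00409). Lgr5, the other stem cell marker of the 8, was called in neither genotype, and the 8 include general epithelial genes such as Epcam. Of the 7 Paneth genes 1 fell in Nt+/+ and 2 in Nt-/- mice. Over all genes tested, 10.4% fell in Nt+/+ and 12.6% in Nt-/- mice. The clearest difference was in 8 genes of villus enterocytes, the mature cells above the crypt, which summed to 1482 to 4278 TPM in ad libitum–fed Nt+/+ mice, 2746 to 4844 in ad libitum–fed Nt-/- mice, 4184 to 10960 in fasted Nt+/+ mice and 7139 to 12140 in fasted Nt-/- mice. Of these 8 genes, 5 rose with fasting in Nt+/+ mice and 7 in Nt-/- mice, beside 11.2% and 12.5% of all genes. The part of these cells in the results below was not tested, and in bulk RNA fewer cells of a type and less RNA per cell cannot be told apart.

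In ad libitum–fed Nt+/+ mice each receptor was more abundant than each ligand. Per transcript length, Erbb3 stood highest in ad libitum–fed Nt+/+ mice at 96.7 ± 22.9 TPM (SD, n = 5), followed by Erbb2 at 48.5 ± 5.97 and Egfr at 14.1 ± 2.15 TPM. The lowest mouse for each of these exceeded the highest mouse for the next gene. Errfi1 came next at 9.05 ± 2.06 TPM. Among ligands, Tgfa (7.02 ± 0.377 TPM) and Hbegf (6.06 ± 1.83 TPM) were highest and overlapped each other, and they stood apart from Egf (1.86 ± 0.620), Btc (1.63 ± 0.625), Areg (1.13 ± 0.545) and Ereg (0.590 ± 0.182 TPM), whose neighbours in this order all overlapped. Tgfa gave 39.1% ± 6.66 of the summed ligand TPM and Hbegf gave 32.7% ± 6.01, so that the name-giving ligand, Egf, made up 10.1% ± 2.78. Erbb3 and Erbb2 kept the 2 highest places in every group, whereas in both fasted groups the mean of Errfi1 (17.5 ± 13.5 TPM in Nt+/+ and 18.2 ± 8.94 TPM in Nt-/- mice) passed that of Egfr (11.1 ± 0.912 and 11.5 ± 1.67 TPM) with overlapping ranges. The ranges of Egfr and the ligand Hbegf also overlapped in both fasted groups (10.2 to 14.3 and 5.84 to 10.9 TPM in Nt-/- mice).

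**Figure D1:**
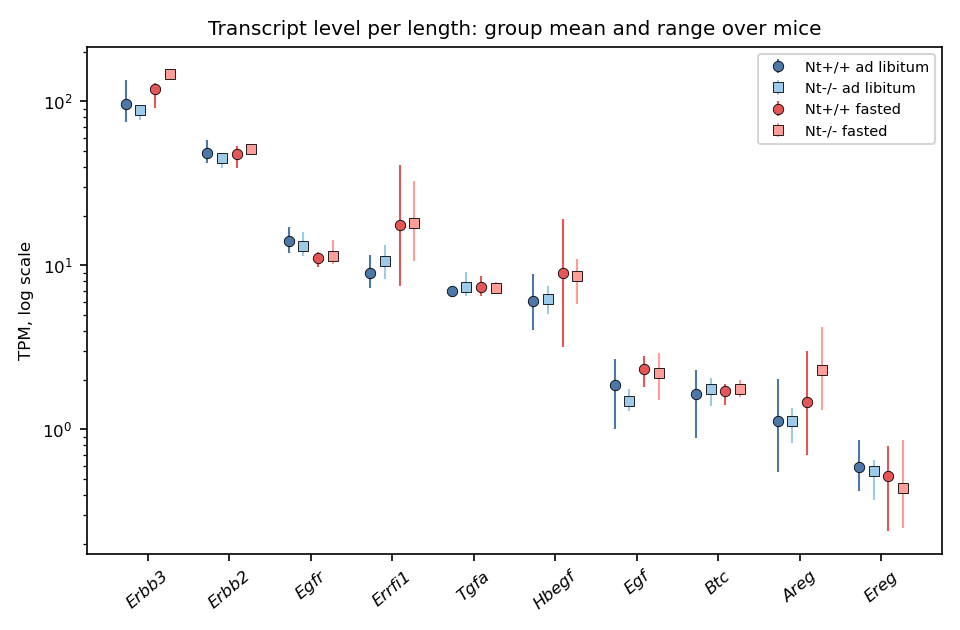
Level per transcript length (TPM, log axis) of the 10 genes, ordered by their mean in ad libitum–fed Nt+/+ mice. Points are group means, lines span the lowest to the highest mouse, and the 4 symbols are the 4 groups: the means of Erbb3 and Erbb2 lie above all others in every group, and Errfi1, Hbegf and Areg have the widest spans in fasted Nt+/+ mice.

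The first question of the design is what the fast did in each genotype. In Nt+/+ mice 3 of the 10 genes passed the test (Egf and Erbb3 higher, Egfr lower), beside 21.6% of all 17875 genes tested (11.2% higher, 10.4% lower). In Nt-/- mice 2 passed (Erbb3 higher, Egfr lower), beside 25.2% of all genes (12.5% higher, 12.6% lower). At an unadjusted p under 0.05 the share was 5 of 10 in each genotype, beside 34.1% and 36.5% of all genes. The quasi-likelihood test of edgeR was used, Benjamini-Hochberg adjusted over all genes with a threshold of 0.05, and all 10 genes passed the filter on low counts. Shares of 3 and 2 in 10 are near the background, so these counts set the ErbB genes apart from no other genes. The median log2 fold change of the 10 genes was 0.22 in Nt+/+ and 0.36 in Nt-/- mice, beside -0.01 and -0.02 over all genes. Values of fed and fasted mice did not overlap for 2 of the 10 in Nt+/+ mice (Egf and Egfr), beside 14.6% of all genes, and for 3 in Nt-/- mice (Btc, Egfr and Erbb3), beside 21.3%.

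**Figure D2:**
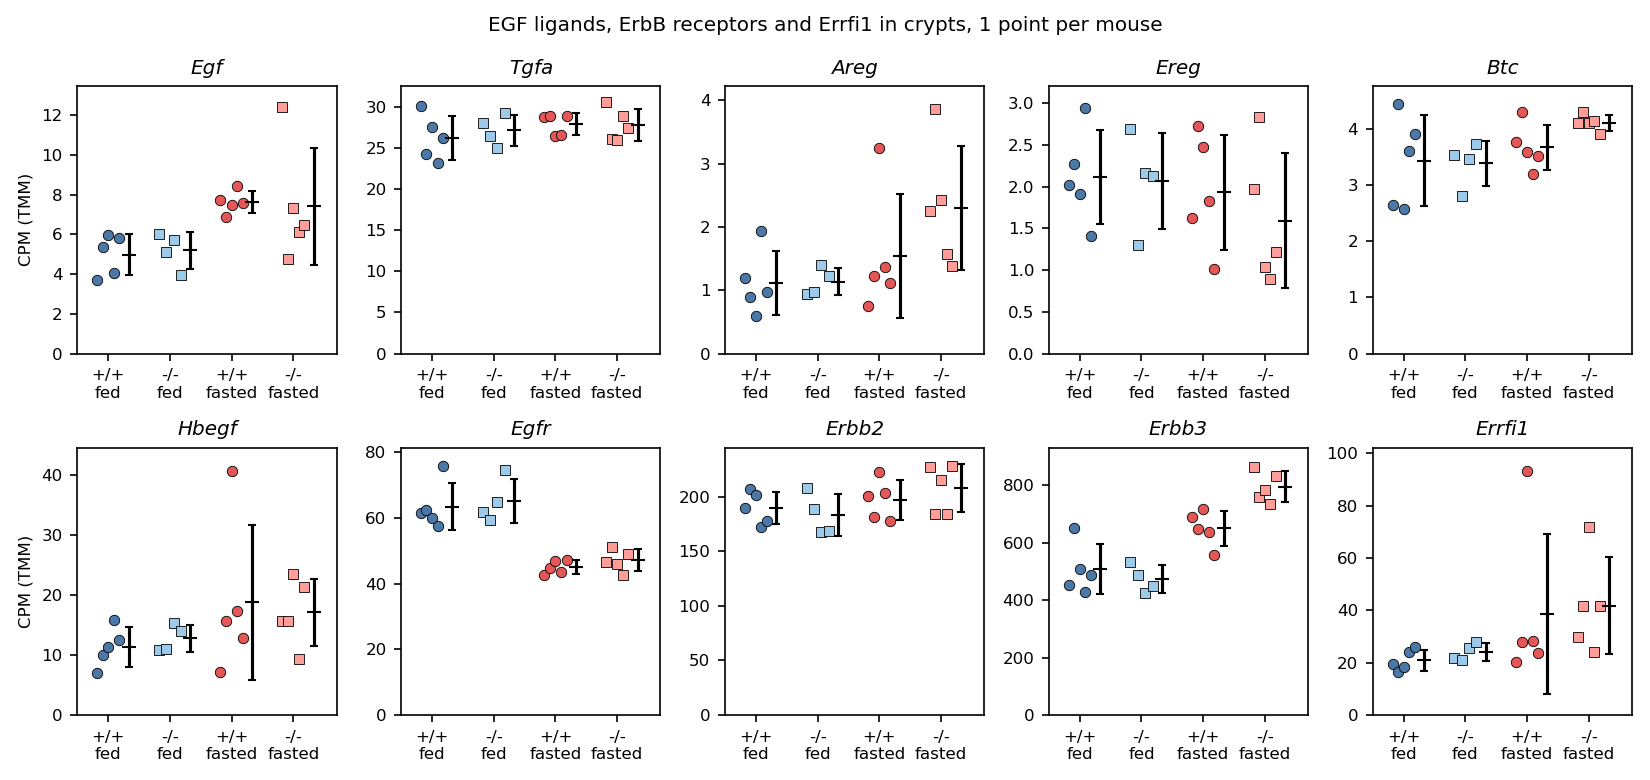
TMM-scaled CPM of each gene, 1 point per mouse, by genotype and diet (fed, ad libitum), with bars for the mean and SD. All axes start at 0. Egfr is lower in all 10 fasted mice than in any of the 9 fed mice, Erbb3 is highest in fasted Nt-/- mice, and single mice stand apart for Errfi1, Hbegf and Areg.

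Egfr, the receptor that binds all 6 of these ligands, had the most uniform response. Its levels in ad libitum–fed Nt+/+ mice were 61.6, 62.3, 59.9, 57.6 and 75.9 CPM, and in fasted Nt+/+ mice 42.5, 44.6, 46.9, 43.4 and 47.3 CPM. Those of ad libitum–fed Nt-/- mice were 61.8, 59.5, 64.9 and 74.5 CPM, and those of fasted Nt-/- mice 46.7, 51.3, 46.1, 42.7 and 49.0 CPM. Every fasted mouse was below every fed mouse of either genotype (at most 51.3 against at least 57.6 CPM). The counts of Egfr fell to 0.708-fold in Nt+/+ mice (log2 fold change -0.50 with a standard error of 0.08; adjusted p = 0.000169, edgeR) and to 0.724-fold in Nt-/- mice (-0.47; standard error, 0.08; adjusted p = 0.000407, edgeR).

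The fall of Egfr was smaller on the TPM scale, which takes transcript length into account. RSEM, the program that made the files, reports for each gene an effective length, which averages the lengths of its transcripts by their estimated abundance. For Egfr this length was 5031, 4897, 4915, 5050 and 5388 bases in ad libitum–fed Nt+/+ mice and 4217, 4474, 4054, 4478 and 4659 bases in fasted Nt+/+ mice. For Nt-/- mice it was 5352, 5301, 5517 and 5712 bases ad libitum and 3972, 4350, 4924, 4851 and 4627 bases fasted. Fasted mice thus had the shorter value in both genotypes without overlap, with differences of -680.0 bases in Nt+/+ mice (exact permutation test, two-sided, p = 0.00794, the smallest that 5 against 5 mice allow) and -926 bases in Nt-/- mice (exact permutation test, p = 0.0159, the smallest for 5 against 4). This length was examined after its values were seen. Over the 28 tests made (7 genes of varying length in 4 comparisons) the adjusted p of both is 0.222, and effective lengths failed to overlap in 2.33% and 2.78% of the 12962 genes whose length varied. Between genotypes, the lengths of none of the 7 genes failed to overlap, beside 0.957% of these genes ad libitum and 0.679% fasted. Of the GENCODE transcripts of Egfr, 1 has 10208 bases in 28 exons and another has 2943 bases in 16 exons, both protein coding, and the other 3 have at most 716 bases. The deposited gene files hold no level for single transcripts, so their shares were not tested. On the TPM scale, which divides by this length, Egfr was 14.1 ± 2.15 TPM in ad libitum–fed and 11.1 ± 0.912 TPM in fasted Nt+/+ mice (SD, n = 5 each), and limma on log2(TPM + 0.5) gave a log2 difference of -0.33 (adjusted p = 0.0742). In Nt-/- mice the levels were 13.2 ± 1.97 (n = 4) and 11.5 ± 1.67 TPM (n = 5), with a log2 difference of -0.19 (limma adjusted p = 0.340). Egfr was thus called on read counts and not on TPM in both genotypes. The 2 fits also differ in test and normalization. Limma on TPM called fewer genes in all, 2416 against 3862 in Nt+/+ and 2908 against 4499 in Nt-/- mice. The part of length in the lost call was not tested.

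Erbb3 was the gene of this family that rose with fasting in both genotypes. In ad libitum–fed Nt+/+ mice it was 453.7, 652.1, 509.5, 429.1 and 488.2 CPM, and in fasted Nt+/+ mice 687.8, 647.8, 717.6, 637.0 and 556.0 CPM. These groups overlapped, since fed replicate 2 was above 3 of the 5 fasted mice, and the lowest fasted mouse was replicate 5, the one with disagreeing labels. Nt-/- mice had 533.5, 486.7, 425.8 and 447.2 CPM ad libitum and 863.9, 756.9, 782.4, 735.3 and 832.7 CPM fasted, with a wide gap between the groups. Erbb3 was 1.28-fold higher after fasting in Nt+/+ mice (log2 fold change 0.36 with a standard error of 0.11; adjusted p = 0.0189, edgeR) and 1.68-fold higher in Nt-/- mice (0.75; standard error, 0.11; adjusted p = 8.98e-05, edgeR). Its effective length did not vary (5918 to 5921 bases), and per length the log2 difference was 0.31 in Nt+/+ mice (limma adjusted p = 0.117) and 0.74 in Nt-/- mice (limma adjusted p = 0.00101). The call in Nt+/+ mice was also lost without fed replicate 1 (adjusted p = 0.0510, edgeR) or fed replicate 4 (adjusted p = 0.0558, edgeR).

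Erbb2, the receptor with no ligand of its own, did not pass the test in either genotype. It ranged from 172.4 to 207.3 CPM in ad libitum–fed and from 177.7 to 222.3 CPM in fasted Nt+/+ mice (log2 fold change, 0.05; adjusted p = 0.706, edgeR). Among Nt-/- mice it ranged from 167.7 to 207.8 CPM ad libitum and from 184.2 to 228.4 CPM fasted (0.18; adjusted p = 0.161, edgeR). The approximate 95% intervals were -0.12 to 0.23 and 0.0014 to 0.37. They use the normal quantile and are narrower than the test implies. The second excludes 0 although the unadjusted p was 0.0624 (edgeR). Erbb2 shares 9 exon bases with Mien1 on the opposite strand, and the strand setting of the counting is not stated.

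The receptors took other shares of their summed TPM in fasted crypts. Egfr made up 8.95% ± 1.07 ad libitum and 6.28% ± 0.444 fasted in Nt+/+ mice (SD, n = 5 each), and 9.01% ± 1.11 (n = 4) and 5.47% ± 0.638 (n = 5) in Nt-/- mice. Erbb3 made up 60.3% ± 2.53 and 66.7% ± 1.43 in Nt+/+ mice, and 60.1% ± 1.12 and 70.2% ± 0.750 in Nt-/- mice. The ratio of Erbb3 to Egfr TPM was 5.86 to 8.66 over ad libitum–fed Nt+/+ mice and 5.79 to 7.81 over ad libitum–fed Nt-/- mice, against 9.26 to 11.6 over fasted Nt+/+ mice and 10.9 to 14.1 over fasted Nt-/- mice. All 10 fasted mice lay above all 9 fed mice in this ratio, which is a description, since both genes had been called on counts. On TPM, the scale of the ratio, Egfr was called in neither genotype and Erbb3 in Nt-/- mice only.

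**Figure D3:**
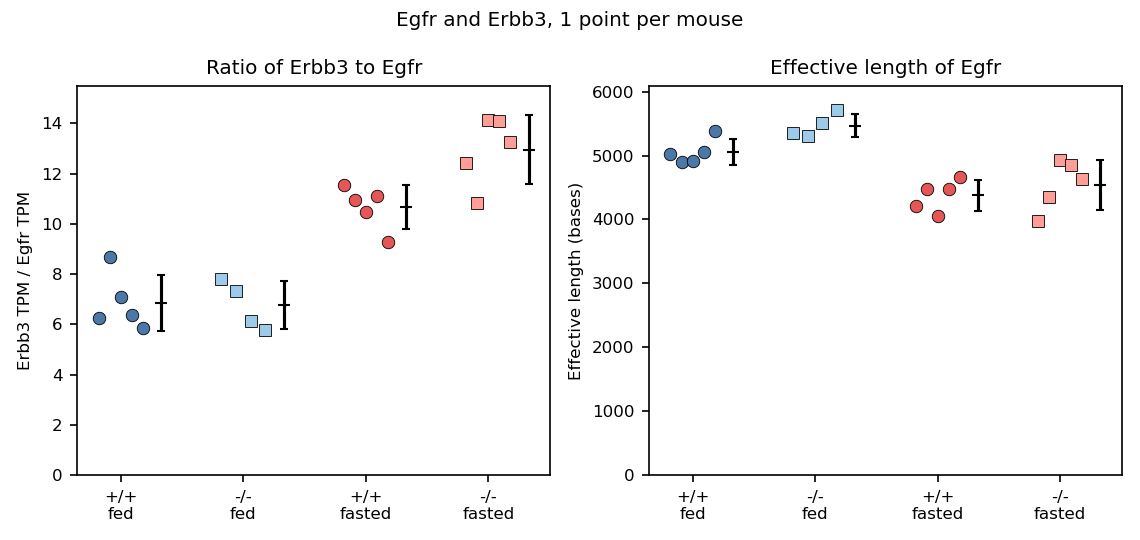
Left, ratio of Erbb3 to Egfr TPM, and right, effective length of Egfr in bases, 1 point per mouse with bars for the mean and SD and axes from 0, by genotype and diet (fed, ad libitum). The ratio is at most 8.66 in fed mice and at least 9.26 in fasted mice, and the length is shorter in the fasted mice of each genotype.

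Among ligands, Egf was the only one called. Its levels were 3.69, 5.38, 5.95, 4.06 and 5.80 CPM in ad libitum–fed Nt+/+ mice and 7.71, 6.89, 7.46, 8.45 and 7.56 CPM in fasted Nt+/+ mice, from 77 to 148 counts per mouse. Every fasted mouse was above every fed mouse, and Egf was 1.53-fold higher after fasting (log2 fold change 0.62 with a standard error of 0.21; adjusted p = 0.0371, edgeR). Nt-/- mice had 6.02, 5.09, 5.73 and 3.94 CPM ad libitum and 12.4, 4.77, 7.34, 6.12 and 6.45 CPM fasted, which overlapped (log2 fold change, 0.52; adjusted p = 0.0858, edgeR), and without the high fasted replicate 1 the difference was 0.25 (adjusted p = 0.317, edgeR), whereas without the low fasted replicate 2 the gene was called (adjusted p = 0.0352, edgeR). The call in Nt+/+ mice lay close to the threshold. Leaving out any of 8 single mice, among them every fasted Nt+/+ mouse, raised the adjusted p to between 0.0501 and 0.0947, and per length Egf overlapped between diets (1.01 to 2.69 and 1.80 to 2.79 TPM; log2 difference, 0.31; limma adjusted p = 0.325).

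Tgfa and Btc, ligands of EGFR, were called in neither genotype, and Tgfa varied little. Tgfa, the most abundant ligand, lay between 23.1 and 30.6 CPM in all 19 mice, and its log2 fold change with fasting was 0.09 in Nt+/+ (adjusted p = 0.444, edgeR) and 0.03 in Nt-/- mice (adjusted p = 0.807, edgeR). The approximate 95% intervals, -0.06 to 0.24 and -0.13 to 0.19, bound a change of Tgfa more tightly than for any other ligand. Btc was 2.64, 4.45, 2.58, 3.603 and 3.92 CPM in ad libitum–fed and 3.77, 4.30, 3.601, 3.20 and 3.53 CPM in fasted Nt+/+ mice (log2 fold change, 0.09; adjusted p = 0.725, edgeR). Btc in Nt-/- mice was 3.54, 2.81, 3.47 and 3.73 CPM ad libitum and 4.11, 4.31, 4.11, 4.14 and 3.91 CPM fasted. The fasted Nt-/- mice lay above the fed ones without overlap but by little, and Btc did not pass the test (0.28; adjusted p = 0.240, edgeR).

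Ereg, Areg and Btc are neighbours on chromosome 5 (GRCm38; Ereg 91074622 to 91093646, Areg 91139599 to 91148432, both on the plus strand, and Btc 91357261 to 91402994 on the minus strand). Ereg (epiregulin), the least abundant of the 10, ranged from 1.40 to 2.94 CPM and from 1.01 to 2.73 CPM in ad libitum–fed and fasted Nt+/+ mice. Among Nt-/- mice it ranged from 1.30 to 2.68 CPM and from 0.888 to 2.84 CPM. Its log2 fold changes of -0.13 and -0.42 (adjusted p = 0.806 and 0.394, edgeR) rest on 9 to 91 counts per mouse. The approximate 95% intervals were -0.73 to 0.47 and -1.07 to 0.23.

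Areg (amphiregulin) was also near the floor of these libraries, with 9 to 63 counts per mouse. It was 1.20, 0.890, 0.595, 1.93 and 0.967 CPM in ad libitum–fed Nt+/+ mice and 0.753, 1.23, 3.24, 1.37 and 1.12 CPM in fasted Nt+/+ mice. Nt-/- mice had 0.944, 0.974, 1.40 and 1.23 CPM ad libitum and 2.24, 3.86, 2.43, 1.58 and 1.37 CPM fasted. Fasted Nt-/- mice were higher in 4 of 5 cases than any fed Nt-/- mouse, whereas in Nt+/+ mice only fasted replicate 3 stood above the fed range. Neither difference passed the test (log2 fold change, 0.47, adjusted p = 0.403 in Nt+/+; 0.99, adjusted p = 0.0694 in Nt-/-; edgeR). Without fasted Nt+/+ replicate 3 the difference in Nt+/+ mice was -0.0076, and the one in Nt-/- mice, at 0.99, had an adjusted p of 0.0286 (edgeR); all groups share 1 estimate of the spread in this fit. It was also called without fasted Nt-/- replicate 5 (adjusted p = 0.0477, edgeR), with only the groups compared in the fit (adjusted p = 0.0348, edgeR) and with DESeq2 (adjusted p = 0.0496).

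Hbegf (heparin-binding EGF-like growth factor) and Errfi1 were both highest in replicate 3 of each fasted group. For Hbegf this mouse stood apart in Nt+/+ mice only, since in Nt-/- mice replicate 5 came close. Hbegf was 6.96, 10.1, 11.4, 15.9 and 12.6 CPM in ad libitum–fed Nt+/+ mice and 7.24, 15.7, 40.8, 17.3 and 12.9 CPM in fasted Nt+/+ mice. Nt-/- mice had 10.8, 10.99, 15.4 and 14.0 CPM ad libitum and 15.7, 15.8, 23.6, 9.37 and 21.5 CPM fasted. The groups overlapped in both genotypes, and fasted replicate 3 was the highest of each (log2 fold change, 0.73, adjusted p = 0.132 in Nt+/+; 0.44, adjusted p = 0.413 in Nt-/-; edgeR). In Nt+/+ mice Hbegf differed by 0.22 without fasted replicate 3 (adjusted p = 0.613, edgeR) and was called without fasted replicate 1, its lowest mouse (0.94; adjusted p = 0.0331, edgeR).

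Errfi1, which terminates EGFR signaling and is itself known as a target of that pathway, was 19.6, 16.4, 18.4, 24.1 and 26.1 CPM in ad libitum–fed and 20.2, 27.9, 93.1, 28.4 and 23.8 CPM in fasted Nt+/+ mice. In Nt-/- mice it was 21.7, 20.8, 25.7 and 28.1 CPM ad libitum and 29.6, 41.8, 71.9, 24.0 and 41.5 CPM fasted. Fasted replicate 3 was again the highest of each genotype, and 4 of 5 fasted Nt-/- mice exceeded all fed Nt-/- mice. The log2 fold changes were 0.89 (standard error, 0.35; adjusted p = 0.0738, edgeR) and 0.80 (standard error, 0.37; adjusted p = 0.123, edgeR), short of the threshold. Leaving out fasted Nt+/+ replicate 3 reduced the difference in Nt+/+ mice to 0.26 (adjusted p = 0.479, edgeR). In the same fit the difference in Nt-/- mice, 0.80, was called (adjusted p = 0.0155, edgeR). Leaving out fasted Nt+/+ replicate 1 or 5 instead brought the difference in Nt+/+ mice past the threshold (adjusted p = 0.0338 and 0.0465, edgeR). Without fasted Nt-/- replicate 3 the difference in Nt-/- mice was 0.51 (adjusted p = 0.351, edgeR).

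Fasted Nt+/+ replicate 3 was also the highest of its group for 3 immediate-early genes that are chosen here after their values were seen: Fos (92.0 CPM, against 11.8 to 29.6 in the other 4 mice), Egr1 (19.3 CPM, against 5.74 to 14.6) and Ier3 (3.50 CPM, against 1.85 to 2.86). Fasted Nt-/- replicate 3, by contrast, was not the highest for any of them (Fos 35.04, Egr1 7.06 and Ier3 2.78 CPM). Both of these mice are labelled male and carry the number 3 in the file names as well. Fasted Nt+/+ replicate 5 is also labelled male, and fasted Nt-/- replicate 5 has no sex label. What set these 2 mice, replicate 3 of each fasted group, apart was not tested.

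Across mice, deviations from the group means on the log2 CPM scale correlated most for Hbegf with Errfi1 (Pearson's r = 0.87), Erbb2 with Erbb3 (0.78), Areg with Errfi1 (0.69), Areg with Hbegf (0.63) and Areg with Ereg (0.56), and least for Tgfa with Hbegf (-0.54). These values describe 19 mice whose genes share a library and its depth, 2 of which carry much of the spread of Errfi1, and they were given no test.

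**Figure D4:**
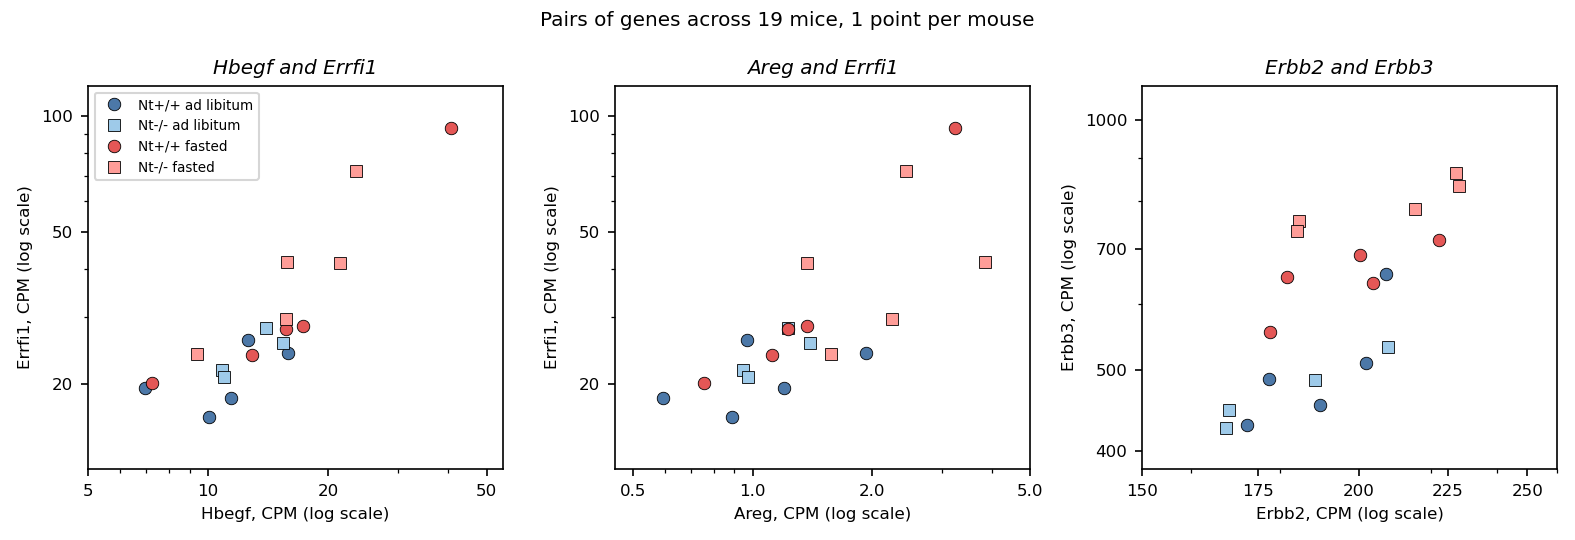
CPM of Hbegf and Errfi1, Areg and Errfi1, and Erbb2 and Erbb3 in 19 mice, 1 point per mouse on log axes, with 1 symbol per group. In the first 2 panels the 2 fasted mice with Errfi1 at 93.1 and 71.9 CPM lie at the upper right, and in the third fasted Nt-/- mice lie above the fed mice at like levels of Erbb2.

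Areg and Errfi1 also share a promoter feature, and their sequences are shown for that reason. RefSeq promoters (GRCm38.p6) were given for 7 of the 10 genes in 9 windows, with none for Ereg, Erbb3 and Hbegf. In the 250 bases before each start, both strands were searched for the cAMP response element TGACGTCA, the AP-1 sites TGACTCA and TGAGTCA, and the FOXO site GTAAACA. The cAMP response element was found in 2 of the 9 windows, that of Areg (bases -61 to -54 from the start) and the second of Errfi1 (-51 to -44), and in 1.55% of all 32851 promoters. No AP-1 site was found, beside 4.46% of all promoters, and 1 FOXO site lay in the second Egf window, beside 3.17% of all. A match describes letters and is not shown to be bound. The Areg sequence is chr5:91139349-91139598 on the plus strand. The Errfi1 sequence is chr4:150854820-150855069 on the plus strand and precedes a start inside the gene (150853919 to 150868892). Capitals mark the cAMP response element.
Areg: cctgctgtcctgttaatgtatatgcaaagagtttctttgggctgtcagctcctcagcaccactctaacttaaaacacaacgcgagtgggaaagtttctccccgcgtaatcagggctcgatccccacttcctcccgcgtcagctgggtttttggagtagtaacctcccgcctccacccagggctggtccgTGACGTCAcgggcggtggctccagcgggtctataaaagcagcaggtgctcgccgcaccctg
Errfi1: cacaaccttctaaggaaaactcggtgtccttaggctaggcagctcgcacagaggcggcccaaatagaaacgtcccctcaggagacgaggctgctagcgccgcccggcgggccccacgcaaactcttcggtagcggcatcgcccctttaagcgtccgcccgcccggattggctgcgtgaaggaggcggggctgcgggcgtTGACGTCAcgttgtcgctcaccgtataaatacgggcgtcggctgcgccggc

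**Figure D5:**
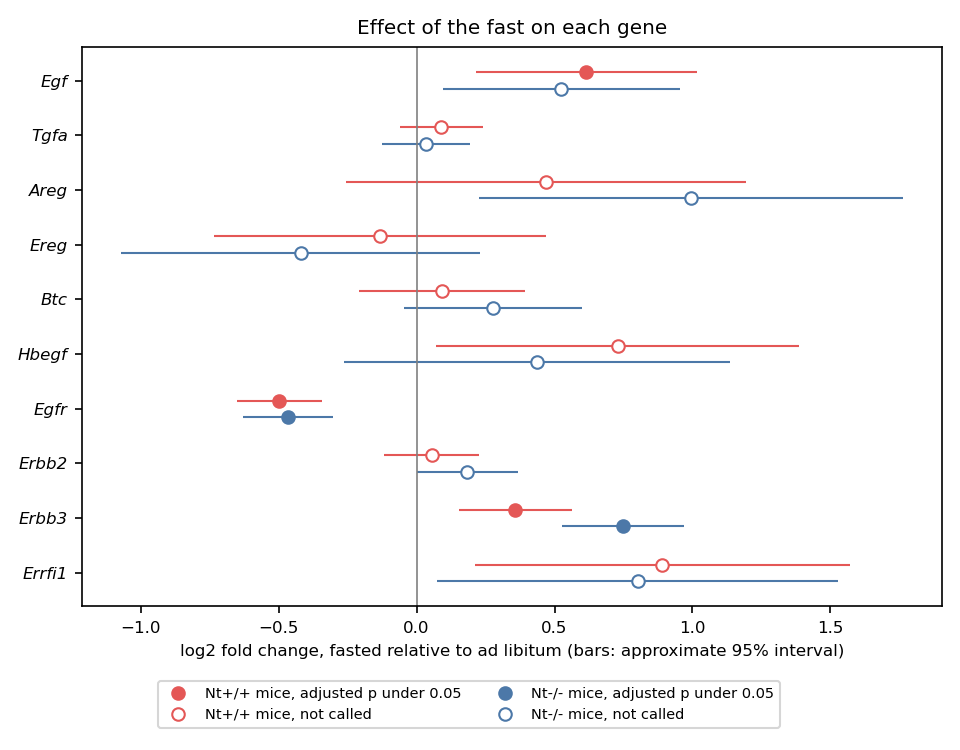
Log2 fold change of each gene in fasted relative to ad libitum–fed mice, for Nt+/+ (red) and Nt-/- (blue) mice, with bars for the approximate 95% interval and filled points for genes past the threshold of 0.05. Egfr lies below 0 and Erbb3 above 0 in both genotypes, and the bars of Areg, Ereg, Hbegf and Errfi1 are the widest.

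The second question is whether loss of neurotensin altered these genes. In ad libitum–fed mice 0 of the 10 passed edgeR's test, beside 0.00559% of all genes (Nts alone), and 0 had an unadjusted p under 0.05, beside 1.67% of all genes. Their log2 fold changes between Nt-/- and Nt+/+ mice lay between -0.10 and 0.20, and no gene separated the groups (0.694% of all genes did). DESeq2 called 0 of the 10 as well, beside 4 of 34533 genes. For the receptors the approximate 95% intervals were -0.12 to 0.20 (Egfr), -0.23 to 0.13 (Erbb2) and -0.32 to 0.12 (Erbb3). For Areg, Hbegf and Errfi1 they were wide, up to 0.79, 0.87 and 0.92.

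In fasted mice edgeR and DESeq2 again called 0 of the 10 between the genotypes, beside 0.00559% of all genes with edgeR and 99 of 34533 genes with DESeq2. With edgeR 1 of the 10, Erbb3, had an unadjusted p under 0.05, beside 9.14% of all genes. Erbb3 was 649 ± 61.3 CPM in fasted Nt+/+ and 794 ± 53.2 CPM in fasted Nt-/- mice (SD, n = 5 each). All 5 Nt-/- mice (735.3 CPM or more) exceeded all 5 Nt+/+ mice (717.6 CPM or less), beside 1.56% of all genes that did not overlap. The difference was 1.22-fold (log2 fold change 0.29 with a standard error of 0.11) and failed the correction (adjusted p = 0.385, and 0.161 to 0.883 over the alternatives). It was 0.17 with the disagreeing mouse grouped as Nt-/-. The villus enterocyte markers, whose part was not tested, summed to a median of 8457 TPM in fasted Nt+/+ and 10600 TPM in fasted Nt-/- mice.

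The effect of fasting itself differed between genotypes for 0 of the 10 genes and for 0 of all genes (0% called with edgeR). At an unadjusted p under 0.05 the count was 1 of the 10 and 2.71% of all genes (485), and DESeq2 called 1 gene, not one of the 10. Erbb3 had the smallest p of the 10, with a rise 1.31-fold larger in Nt-/- mice (difference of log2 fold changes 0.39 with a standard error of 0.15; adjusted p = 1.00, edgeR). For Egfr the same difference was 0.03, with an interval of -0.19 to 0.25.

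The rest of the ErbB system was mostly silent in these crypts. Of 6 other members, Erbb4, the remaining receptor, had 0 counts in 18 of 19 mice and 2 counts in the last. Epgn, the remaining EGFR ligand, had at most 3 counts per mouse, and the neuregulins Nrg1, Nrg2 and Nrg3 had at most 5, 2 and 1. Nrg4, a neuregulin known as a ligand of ErbB4, could be tested. It was 3.81, 5.57, 5.54 and 4.31 CPM in ad libitum–fed and 5.61, 6.70, 9.25, 11.5 and 6.45 CPM in fasted Nt-/- mice, a rise without overlap of 1.64-fold (log2 fold change, 0.72; adjusted p = 0.0350, edgeR). In Nt+/+ mice the difference of Nrg4 was 0.44 (adjusted p = 0.177, edgeR) and the groups overlapped.

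Of 9 ligand-processing genes tested of 10 listed, 4 rose and 2 fell with fasting in Nt+/+ mice, and 2 rose and 1 fell in Nt-/- mice, beside 21.6% and 25.2% of all genes called, with medians of 0.08 and 0.10 on the log2 scale. Adam17, the main sheddase of EGFR ligands, fell from 45.01 ± 2.90 to 32.3 ± 3.22 CPM in Nt+/+ mice (log2 fold change, -0.48; adjusted p = 0.000250, edgeR) and from 44.1 ± 4.02 to 31.8 ± 2.34 CPM in Nt-/- mice (-0.47; adjusted p = 0.000405). Adam10 fell in Nt+/+ mice (-0.37; adjusted p = 0.00982, edgeR). Furin, a protease that activates ADAM precursors, rose 1.68-fold in Nt+/+ mice and 1.82-fold in Nt-/- mice (adjusted p = 5.29e-06 and 2.27e-06, edgeR), and Rhbdf1, an iRhom that escorts ADAM17, rose 1.61-fold and 1.40-fold (adjusted p = 0.000557 and 0.0111).

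In the list of receptor adaptors and the RAS–ERK cascade (18 genes), 3 rose and 0 fell in Nt+/+ mice, and 5 rose and 0 fell in Nt-/- mice, beside 21.6% and 25.2% of all genes called in either direction. Gab1, the docking protein of EGFR signaling, rose from 34.0 ± 1.37 to 52.2 ± 3.97 CPM in Nt+/+ mice and from 37.5 ± 1.54 to 58.9 ± 2.49 CPM in Nt-/- mice (adjusted p = 6.51e-07 and 7.75e-07, edgeR). The kinases Braf (1.36-fold and 1.31-fold) and Map2k2 (1.35-fold and 1.39-fold) rose in both genotypes, and Sos2, a RAS exchange factor, rose 1.21-fold in Nt-/- mice. The PI3-kinase and STAT list (11 genes) had 2 rises in each genotype, Plcg1 (1.36-fold and 1.31-fold) and Pik3r2 (1.25-fold and 1.24-fold), and 1 fall, of Pik3ca, in Nt+/+ mice (0.849-fold; adjusted p = 0.0477, edgeR). Medians of both lists were between 0.03 and 0.10 on the log2 scale.

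Of 15 genes of receptor degradation and inhibition other than Errfi1, 2 rose and 1 fell in Nt+/+ mice, and 3 rose and 1 fell in Nt-/- mice, shares near the 21.6% and 25.2% of all genes. Lrig3, of a family of receptor regulators, rose 1.47-fold and 1.38-fold (adjusted p = 2.26e-06 and 3.40e-05, edgeR). Rnf41 (Nrdp1), the ubiquitin ligase known for degrading ERBB3, rose 1.22-fold and 1.23-fold (adjusted p = 0.0186 and 0.0188). Socs5, an inhibitor of EGFR signaling, fell to 0.606-fold and 0.491-fold (adjusted p = 0.0140 and 0.00168).

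Among 18 tested feedback genes and targets of ERK, 2 rose and 1 fell in Nt+/+ mice, and 3 rose and 4 fell in Nt-/- mice, beside 21.6% and 25.2% of all genes called, with medians of 0.07 and -0.12 on the log2 scale. The feedback genes Dusp5 (1.37-fold and 1.36-fold) and Spry2 (1.22-fold and 1.29-fold) rose in both genotypes. Ccnd1, which encodes the G1 cyclin D1, fell from 184 ± 36.1 to 96.4 ± 20.2 CPM in Nt+/+ mice and from 145 ± 28.2 to 75.6 ± 18.7 CPM in Nt-/- mice, to 0.524-fold in both (adjusted p = 0.000906 and 0.00114, edgeR). Etv5, an ETS factor, fell to 0.533-fold in Nt-/- mice (adjusted p = 0.00261). Between genotypes, 0 genes of these 5 lists passed edgeR's test in either diet, beside the 0.00559% of all genes. At an unadjusted p under 0.05 (edgeR), 5 of 18 adaptor and RAS–ERK genes differed between fasted genotypes, beside 9.14% of all genes. The other lists held 1 of 9 (ligand processing), 0 of 11 (PI3-kinase and STAT), 2 of 15 (degradation) and 2 of 18 (feedback). Ad libitum it was 1 of 18 in the adaptor and the feedback list and 0 in the others, beside 1.67%. No list was tested as a set.

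The genes whose levels followed those of Egfr most closely over the 19 mice, among 13246 genes with an average log2 CPM of at least 1, were Met, the hepatocyte growth factor receptor (Pearson's r of log2 CPM = 0.93), the topoisomerase Top1 (0.93) and the helicase Brip1 (0.92). Met, like Egfr, fell with fasting in both genotypes (log2 fold change, -0.48 and -0.49; adjusted p = 0.000155 and 0.000189, edgeR). For Erbb3 they were Ncoa2 (0.93), Pex19 (0.92) and Gucd1 (0.92). These correlations contain the difference between diets, share library and depth, and were given no test.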

How the data were processed

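Crypt RNA of 19 mice was sequenced as ribosomal RNA–depleted, single-end libraries. The authors trimmed reads with Trimmomatic 0.39, used RSEM with Ensembl's GRCm38 transcripts, and the deposited tables give per gene an expected count (not normalized, with ambiguous reads divided by RSEM's model), TPM and an effective length. The RSEM version, read strand setting and low-count filter are not given in the sources used here. Expected counts were rounded to whole counts. Gene IDs were matched to GENCODE M21 symbols (55141 of 55487), an annotation that may differ from the authors' in transcripts. Groups follow the sample titles. Each library is labelled as its own mouse, with no litter given.

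Counts were TMM normalized, filtered with filterByExpr (17875 genes) and fitted over all 4 groups at once by edgeR 4.0.16 in R 4.3.3 (quasi-likelihood test, Benjamini-Hochberg adjustment over all genes, threshold 0.05, 15 residual degrees of freedom). Standard errors were set so that the squared ratio of the log2 fold change to its error equals F. Approximate 95% intervals use the normal quantile, so all of them are narrower than the test implies. The step was tested on simulated data. CPM (same gene across mice) use TMM library sizes and the deposited TPM compare genes. Tests on TPM used limma 3.58.1 on log2(TPM + 0.5), on which scale changes of low genes are understated. Totals of 9059418 to 35068669 counts gave 9 to 91 counts per mouse for Areg and Ereg and at least 433 for each receptor.

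Genes named are the 10 genes, Nts, the other ErbB ligands and receptors, per pathway list and comparison up to 4 called genes of smallest p, and the 3 genes correlating best with Egfr and with Erbb3. These genes, lists and rules were chosen with earlier results of these data known. A planned search of the ligand proteins was not made.

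Alternatives were other filters and normalizations, DESeq2 1.42.0, sex, replicate blocks, the disagreeing mouse regrouped, only the groups compared, each mouse left out, and, chosen after seeing the data, TPM and the fit without the 2 shallowest libraries. The fit with sex left out fasted Nt-/- replicate 5, which has no sex label. For the numbers in the titles, same-numbered mice shared deviations from their group means most evenly in 2 comparisons of 5 pairs each. The lowest r of any pair was 0.165 between diets in Nt+/+ mice and 0.124 between fasted genotypes. In the other 2, of 4 pairs each, the mean r was 0.130 between diets in Nt-/- mice (lowest -0.065) and 0.160 between ad libitum–fed genotypes (lowest 0.0059). Pairs of mice with different title numbers had a mean r of -0.046 over all groups. For the numbers in the names of the deposited tables, which differ for 2 mice, the lowest r in these 4 comparisons was 0.117. What the numbers stand for is not stated.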

Additional observations from a re-analysis of the deposited data

Results flagged for a closer look

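In 40 groups of values (10 genes in 4 groups), a mouse far from the others of its group was found in 2, and chance alone gives about 1 in 20. Errfi1 was 93.1 CPM in fasted Nt+/+ replicate 3, whereas the other 4 fasted Nt+/+ mice lay between 20.2 and 28.4 CPM. Egfr was 75.9 CPM in ad libitum–fed Nt+/+ replicate 5, whereas the other 4 lay between 57.6 and 62.3 CPM. Without that mouse the fall of Egfr with fasting in Nt+/+ mice was -0.43 on the log2 scale, with an adjusted p of 0.000470 (edgeR).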

How the results depend on the processing

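Of 1876 values recomputed under alternatives, 1760 were counted as unchanged. A fold change had to keep its direction and side of the threshold. A count of called genes had to stay within a set factor, and a mean TPM within its SD. The mean TPM values were recomputed with the same effective lengths, so they could hardly differ. The fall of Egfr was called under every count-based alternative and with each mouse left out, and not on TPM; the cause was not tested. With fasting in Nt+/+ mice, 0 of the 10 genes were called on TPM, and 1 to 4 with single mice left out (1 without ad libitum–fed Nt+/+ replicate 1 or 4); all genes called numbered 2416 on TPM (927 higher, 1489 lower, against 2010 and 1852 on counts). In Nt-/- mice 4 of the 10 were called with only the groups compared and without the 2 shallowest libraries, 1 on TPM, 3 with DESeq2 or with title numbers as a replicate block, and 2 to 4 with single mice left out (4 without fasted Nt+/+ replicate 3). The genes added were Areg and Errfi1 in the first and last of these fits, Egf and Erbb2 without the shallowest libraries, and Areg with DESeq2 (adjusted p = 0.0496) and the block (adjusted p = 0.0392, edgeR). All genes called in Nt-/- mice numbered 2908 on TPM (1353 higher, 1555 lower). With the replicate block, 5006 (titles) and 5484 (file numbers) genes were called in Nt+/+ and 5657 and 5672 in Nt-/- mice, against 3862 and 4499, and the block changed no other call of the 10 genes. Between genotypes, requiring 10 counts in every mouse or regrouping the disagreeing mouse left 0 genes called in either diet. The call lost was that of Nts itself, the 1 gene called in the main fit. Nts had 3 to 15 counts in fasted Nt-/- mice, so the filter removes it, and the regrouped mouse had 5.43 CPM of Nts. These 2 settings therefore say nothing of how other genes depend on the processing. DESeq2 called 4 ad libitum, 99 fasted (76 higher, 23 lower) and 1 for the difference in the effect of fasting, and single mice left out gave 1 to 4 fasted.

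Egf in Nt+/+ mice was 0.61 (adjusted p = 0.0572) with no filter. Values that turned sign, none of them called, were as follows on the log2 scale. With fasting, Ereg was 0.03 with the disagreeing mouse regrouped, and on TPM Erbb2 was -0.016 (Nt+/+) and Tgfa -0.0070 (Nt-/-). Between ad libitum–fed genotypes, TPM gave -0.20 (Egf), 0.12 (Btc) and -0.092 (Egfr), the title block -0.12 (Areg) and 0.0015 (Btc), and the file-number block 0.012 (Ereg). Between fasted genotypes, Egf was 0.032 with sex and 0.20 without the shallowest libraries, Errfi1 was -0.13 with the mouse regrouped, and Hbegf was 0.0094 and 0.027 with the blocks, 0.10 without the shallowest libraries and 0.13 on TPM. Tgfa was 0.0071 (RLE), 0.0023 (sex), 0.017 (mouse regrouped), 0.011 (DESeq2), 0.0044 (shallowest libraries out) and 0.0015 (TPM). For the difference in the effect of fasting, Egf was 0.13 (shallowest libraries out) and 0.11 (TPM), Btc -0.089 and Hbegf 0.069 (TPM), Egfr -0.0077 (title block), and Errfi1 0.030 (title block) and 0.096 (shallowest libraries out).

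Leaving out single mice turned signs within these ranges: with fasting, Areg -0.0076 to 0.75 and Ereg -0.28 to 0.033 in Nt+/+ and Tgfa -0.0040 to 0.071 in Nt-/- mice; between ad libitum–fed genotypes, Egf -0.021 to 0.18, Areg -0.14 to 0.29, Ereg -0.18 to 0.15, Btc -0.11 to 0.088, Egfr -0.033 to 0.11 and Erbb3 -0.16 to 0.010. Between fasted genotypes they were Egf -0.29 to 0.092, Tgfa -0.044 to 0.020, Hbegf -0.33 to 0.38 and Errfi1 -0.18 to 0.74, and for the difference in the effect of fasting Egf -0.36 to 0.023, Hbegf -0.50 to 0.21, Egfr -0.042 to 0.10 and Errfi1 -0.38 to 0.54.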
